A study of Mus musculus with 6 samples.

Results

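The genes described here encode the constitutive proteasome: the 7 alpha (Psma1 to Psma7) and 7 beta (Psmb1 to Psmb7) subunits of the core particle, 9 subunits of the base and 8 of the lid of the regulatory particle, and the 3 subunits of the PA28 activator (Psme1, Psme2 and Psme3). Members were the probe sets whose array annotation names 1 of these 34 genes and no other gene. That gave 71 of the 45101 probe sets on the array and 33 genes. Psme2 had no probe set to itself and was not analysed here. Testing was limited to probe sets that the array software called Present on 3 or more arrays out of 6, and this kept 58 member probe sets of 22063 in all and 33 member genes of 11357. Each gene is given by its tested probe set with the highest mean, and in all 33 genes that probe set was Present on all 6 arrays.

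RNA came from tumour stroma of male B6 mice, 4 weeks after tumour cells were injected under the skin, with 3 wild-type (WT) mice and 3 Pdia4-/- (KO) mice and 1 Affymetrix Mouse430_2 array per mouse. The growth protocol names the Lewis lung carcinoma line, LLC, whereas the series design names GK1, and both groups carried the same kind of tumour by either account. Pdia4 encodes an enzyme that forms disulphide bonds in proteins of the endoplasmic reticulum. The labels give neither its deleted part, nor the mice's ages, nor the genotype of the tumour cells. The comparison of KO with WT addresses which pathways lie downstream of Pdia4 in tumour stroma.

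The proteasome degrades proteins that carry ubiquitin chains. Its core is a stack of rings in which alpha subunits form the gates and beta subunits the inner chamber, with the cutting sites on Psmb5, Psmb6 and Psmb7. The base unfolds substrates with the ATPases Psmc1 to Psmc6, and the lid removes ubiquitin through the protease Psmd14. In cells exposed to interferon gamma, the subunits Psmb8, Psmb9 and Psmb10 take the places of the 3 constitutive cutting subunits, which makes the immunoproteasome. PA28, a ring of the products of Psme1 and Psme2 that opens the core without ATP, is also induced by interferon gamma, whereas Psme3 forms a nuclear activator ring of its own. When proteasomes are blocked, the transcription factor Nfe2l1 (NRF1) raises the constitutive subunits together through antioxidant response elements.

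Array facts bear on all values below. Present calls numbered 21202 to 22185 per array, and the number of arrays limits the precision. Pdia4 signal was 3941.6, 2765.6 and 4103.9 in WT and 2324.2, 1521.1 and 1402.1 in KO, so the KO arrays were all below the WT arrays while Pdia4 stayed detected (limma log2 difference -1.06, adjusted p = 0.161). The sources used here do not place its probe set relative to the deletion, so this checks the labels in part. KO replicate 3, the array with another number in its file header, stood apart on the first principal component, with a score of 105 against -51.0 to 12.0 on the other 5 arrays. The stroma also differed in its cell markers. For comparison, the KO arrays were all above the WT arrays in 12.7% of all tested genes and all below them in 20.5%. Of 5 T and NK cell markers 4 (Cd3e, Cd3g, Cd8a and Nkg7) lay above WT on every KO array. The NK cell receptor gene Ncr1 had a log2 difference of -0.28 with overlapping groups. The summed signals of the 5 were 1674 to 3129 in WT and 5622 to 6260 in KO. Cd3e was Present on 1 WT and 3 KO arrays, so it met the filter only with its KO arrays. The keratin genes Krt8 and Krt18 lay below WT on every KO array, and the summed carcinoma markers (Krt8, Krt18 and Cdh1) went from 11338 to 15168 in WT to 2200.3 to 6377 in KO, while Cdh1 alone had overlapping groups and a log2 difference of 0.33, and Epcam was Absent on every array. Of 5 fibroblast markers 3 (Col3a1, Pdgfra and Dcn) lay below and 1 (Col1a1, log2 difference 1.70) above WT on every KO array. Pdgfrb had 0.76 with overlapping groups. The summed signals, mostly from Col3a1, were 54673 to 57148 in WT and 30994 to 45932 in KO. The 4 macrophage markers had positive differences, and Cd68 lay above WT on every KO array (log2 difference 0.74). The summed signals of the 4 overlapped (40283 to 61370 in WT and 48851 to 71739.9 in KO). Of 3 tested endothelial markers 2, Pecam1 and Cdh5, lay above WT on every KO array (summed 325 to 349 in WT and 562.9 to 826.7 in KO). Pecam1 was Present on 0 WT and 3 KO arrays, so it was tested only through the group where it is high. The 3 tested neutrophil markers also had positive differences, with sums of 68428 to 176172 in WT and 130202 to 175834 in KO, mostly from S100a8 and S100a9. Of these markers Csf3r lay above WT on every KO array (log2 difference 1.42), while S100a8 and S100a9 had overlapping groups. Any part of these shifts in the proteasome values was not tested.

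Promoters of 4 genes are printed for their matches to searched motifs. Psmb6 and Psmb5 are cutting subunits with small differences, Psme1 had the smallest p among the members, and Psmb8 replaces Psmb5 in the immunoproteasome. Each sequence runs from 250 bases before to 50 bases after the gene's start, from RefSeq on GRCm38.p6. Capitals mark letters that match 1 of 3 searched motifs on either strand: TGACNNNGC (antioxidant response element core), TTTC, any 2 bases and TTTC (interferon-stimulated response element core), and TTCNNNGAA (gamma-activated site core). The positions are Psmb6 at chr11:70525107-70525406 (+ strand), Psmb5 at chr14:54617946-54618245 (- strand), Psme1 at chr14:55578244-55578543 (+ strand) and Psmb8 at chr17:34197945-34198244 (+ strand).
Psmb6: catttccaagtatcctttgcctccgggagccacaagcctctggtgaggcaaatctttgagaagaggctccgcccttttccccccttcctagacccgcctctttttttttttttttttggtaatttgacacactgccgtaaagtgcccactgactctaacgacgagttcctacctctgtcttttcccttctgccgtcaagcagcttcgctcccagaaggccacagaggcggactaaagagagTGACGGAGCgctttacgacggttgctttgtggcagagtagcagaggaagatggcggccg
Psmb5: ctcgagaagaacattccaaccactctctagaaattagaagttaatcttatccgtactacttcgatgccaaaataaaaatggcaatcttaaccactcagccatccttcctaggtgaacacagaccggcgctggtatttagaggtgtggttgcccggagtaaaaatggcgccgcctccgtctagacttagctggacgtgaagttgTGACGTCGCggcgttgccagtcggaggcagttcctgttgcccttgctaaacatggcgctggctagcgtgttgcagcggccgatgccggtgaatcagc
Psme1: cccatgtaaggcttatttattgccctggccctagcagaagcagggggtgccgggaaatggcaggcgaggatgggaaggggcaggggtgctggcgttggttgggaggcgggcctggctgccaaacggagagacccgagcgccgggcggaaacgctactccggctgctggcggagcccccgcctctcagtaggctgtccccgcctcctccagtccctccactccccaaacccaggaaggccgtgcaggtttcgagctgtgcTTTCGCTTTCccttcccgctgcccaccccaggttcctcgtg
Psmb8: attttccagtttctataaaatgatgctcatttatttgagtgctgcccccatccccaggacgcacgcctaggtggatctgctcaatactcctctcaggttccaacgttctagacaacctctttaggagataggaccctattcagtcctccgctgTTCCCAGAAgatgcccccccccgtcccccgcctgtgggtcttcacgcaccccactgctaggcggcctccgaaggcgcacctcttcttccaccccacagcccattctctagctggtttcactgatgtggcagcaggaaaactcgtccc
In Psmb6 the match TGACGGAGC begins 9 bases before the start, and in Psmb5 the match TGACGTCGC begins 47 bases before it. In Psme1 the match TTTCGCTTTC begins 9 bases after the start, and in Psmb8 the match TTCCCAGAA begins 97 bases before it. The promoters of Psmb9 and Psmb10, the other replacement subunits, held 0 matches to the 3 motifs. The table held 31 promoters for 28 of the 34 listed genes, Psme2 included, and those not matched were Psmb1, Psmb2, Psmb7, Psmc3, Psmd3 and Psmd7. Of these, 4 (12.9%) held TGACNNNGC, against 12.4% of all 32851 promoters. The interferon-stimulated core stood in 3 of the 31 (9.68%), in the promoters of Psme1, Psmb3 and Psmd4, against 3.44% of all. TTCNNNGAA stood in 1 of the 31 (3.23%), against 8.3% of all. CCAAT, the box bound by factor NF-Y, stood in 11 of the 31 (35.5%), against 37.4% of all. These matches are letters in a window, not binding sites.

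No constitutive proteasome gene passed the test between KO and WT stroma. limma called 0 of the 33 genes at an adjusted p under 0.05, as it did nearly everywhere: it called 0.0264% of all tested genes as higher and 0.00881% as lower. At an unadjusted p under 0.05, 1 member was higher in KO (Psme1, 3.03% of members against 8.88% of all tested genes) and 1 was lower (Psmd11, 3.03% against 11.8%). The log2 difference, KO minus WT, was above 0 in 16 members and below 0 in 17, with a median of -0.02 that became 0.06 under 75th percentile scaling and 0.02 after cyclic loess. The median over all tested genes was -0.10, and 42.1% of them lay above 0. The median size of the difference was 0.23 in members and 0.35 in all tested genes, beside a median within-group SD of 0.17 and 0.30 on the log2 scale. Members were also brighter, with a median signal of 5143 against 718 over all tested genes. The part of signal level in the sizes and spreads was not tested. Of the members, 4 (12.1%) exceeded 0.5 against 34.2% of all tested genes. Those 4 were Psma4, Psmd8 and Psme1, which were positive, and Psmd11, which was negative.

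The groups separated fully in 8 members. In 6 of them the KO arrays were all above the WT arrays (18.2% of members, against 12.7% of all tested genes), and these were Psma4, Psma7, Psmb2, Psmb3, Psmb4 and Psme1. In 2 of them, Psmd11 and Psmd14, the KO arrays were all below the WT arrays (6.06%, against 20.5%). In these bulk samples, fewer cells of a type and less RNA per cell cannot be told apart. For 27 of the 33 genes the 95% interval of limma's difference lay between -1 and 1, so that a change of 2-fold either way lay outside it.

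**Figure D1:**
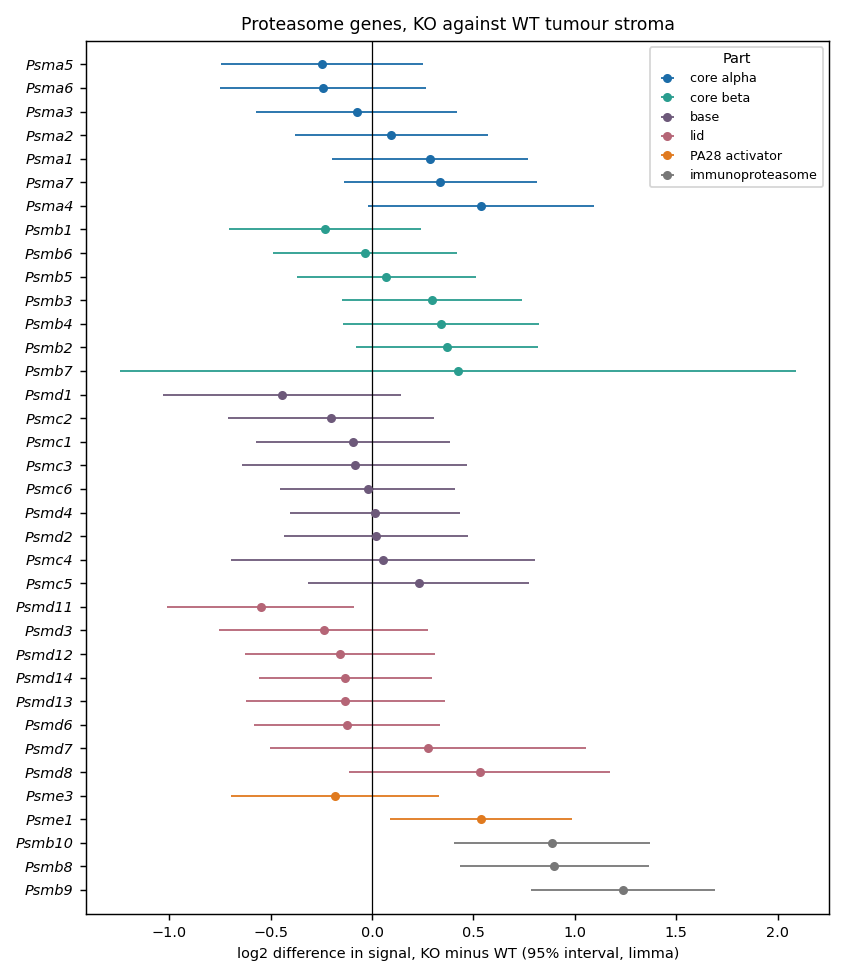
Log2 difference in signal, KO minus WT, with limma's 95% interval for each of 33 members and the 3 immunoproteasome subunits, coloured by part and ordered by size within each. Most member intervals span 0, Psmb7 has by far the widest, and the 3 immunoproteasome intervals lie above 0.

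**Figure D2:**
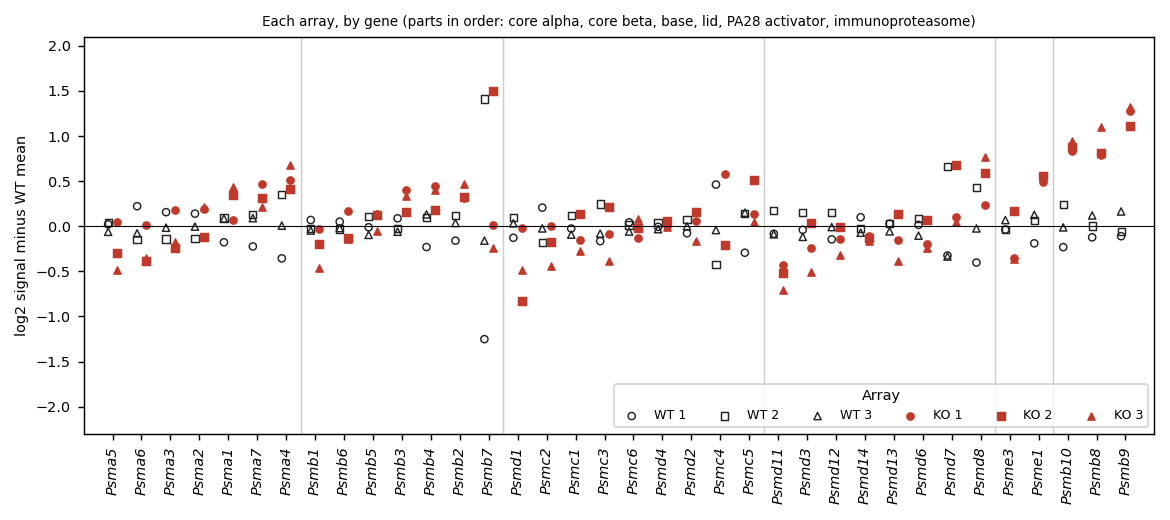
Log2 signal of each gene on each array, relative to that gene's WT mean. Open symbols are WT arrays and filled symbols KO arrays, with circles, squares and triangles for replicates 1, 2 and 3. Members stay mostly within 0.5 of 0 apart from Psmb7, which is high on the replicate 2 arrays of both groups.

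Among the alpha subunits, which gate the core, 4 of 7 genes had a positive difference (median 0.10, range -0.25 to 0.54). Psma4 read 4232.4, 6896.4 and 5442.3 in WT and 7751.3, 7219.1 and 8684.6 in KO. The lowest KO array was thus just above the highest WT array, with a mean of 5524 ± 1334 in WT and 7885 ± 742 in KO (SD, n = 3). For Psma4 the log2 difference was 0.54 (SE 0.24, limma adjusted p = 0.259). Psma7 read 3966.2, 5080.6 and 4929.3 in WT and 6425.6, 5758.2 and 5390.6 in KO (log2 difference 0.34, SE 0.20, limma adjusted p = 0.366). Its second probe set gave 0.24 with overlapping groups. Psma1 read 5157.8, 6215.2 and 6191.7 in WT and 6135.8, 7417.8 and 7906.9 in KO. Of the KO arrays, KO replicate 1 lay within its WT range, and the log2 difference was 0.29 (SE 0.21, limma adjusted p = 0.436). Of 3 dimmer Psma1 probe sets, 1 that was Present on 3 arrays had -0.64, and the others had 0.10 and 0.88.

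The other alpha genes were flat or slightly negative. Psma2 had a log2 difference of 0.10 and Psma3 of -0.08. Psma5 and Psma6 had -0.25 and -0.24, but the other tested Psma5 probe sets had 0.10 and 0.40.

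Among the beta subunits, which line the chamber, 5 of 7 genes had a positive difference, with a median of 0.30 and a range of -0.23 to 0.42. Psmb2 read 4011.3, 4879.6 and 4593.2 in WT and 5553.5, 5619 and 6203.2 in KO, without overlap (log2 difference 0.37, SE 0.19, limma adjusted p = 0.309). Psmb4 read 10177.9, 12788.3 and 13076.7 in WT and 16298.1, 13510.2 and 15719.6 in KO (log2 difference 0.34, SE 0.21, limma adjusted p = 0.364). Psmb3 read 7264.5, 6708.9 and 6553.2 in WT and 9017.9, 7602 and 8612.9 in KO (log2 difference 0.30, SE 0.19, limma adjusted p = 0.388). These are structural subunits of the ring that do not cut. For Psmb3 and Psmb4 the gene's other probe set pointed the other way, at -0.24 and -0.12, with overlapping groups. With the mean over each gene's tested probe sets, the beta median was 0.07 in place of 0.30. It was 0.06 without WT replicate 1 and 0.04 without KO replicate 2. Psmb1, another structural subunit, had -0.23 (limma adjusted p = 0.515).

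The constitutive cutting subunits Psmb5 and Psmb6, whose promoters are printed above, had small differences. Psmb5 read 5205.7, 5647.1 and 4909.1 in WT and 5762.9, 5719.4 and 5066.8 in KO. Its log2 difference was 0.07, with a 95% interval of -0.37 to 0.51. Psmb6 read 7385.9, 6985 and 7029.9 in WT and 8016.4, 6514.1 and 6461.9 in KO. Its log2 difference was -0.03, with a 95% interval of -0.49 to 0.42, and turned to 0.05 under 75th percentile scaling. For both genes the groups overlapped, and the spread within groups was below that of most genes: 3.52% of all tested genes varied less than Psmb5 and 7.23% less than Psmb6.

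Psmb7, the remaining cutting subunit, was unlike all other members. It read 999, 6325 and 2130 in WT and 2409.5, 6703.7 and 2007.5 in KO, a spread of 6.71-fold between the lowest and the highest array. The replicate 2 arrays of both genotypes were high and the other 4 arrays low, so the split did not follow genotype. The log2 difference of 0.42 had a 95% interval of -1.24 to 2.09 and changed sign without WT replicate 1 (-0.20) or KO replicate 2 (-0.11). Its within-group SD of 1.16 on the log2 scale was higher than that of 98.2% of all tested genes, against a median of 0.17 over the members and 0.30 over all tested genes. Psmb7 was measured by 1 probe set, so no second reading was available.

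The interferon-induced subunits that replace these 3 were higher on every KO array by their brightest probe sets, though not called. Such a separation was seen in 12.7% of all tested genes. Psmb9 read 2205.3, 2292.4 and 2666.2 in WT and 5749.5, 5148.7 and 5946.3 in KO (log2 difference 1.24, SE 0.19, limma adjusted p = 0.13). Psmb8 read 4276.4, 4666.1 and 5059.8 in WT and 8050.9, 8163.7 and 9966 in KO (log2 difference 0.90, SE 0.20, limma adjusted p = 0.146). Psmb10 read 2346.8, 3262.4 and 2730.8 in WT and 4921.1, 5057.9 and 5314.9 in KO (log2 difference 0.89, SE 0.21, limma adjusted p = 0.148). On these probe sets the lowest KO array of each gene thus lay well above its highest WT array. A dimmer Psmb8 probe set had a log2 difference of 0.89 with overlapping groups, at 200.6, 75.1 and 102.4 in WT and 211.5, 244.4 and 191.5 in KO.

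The balance of each constitutive cutting subunit with its replacement was compared on each array. Relative to Psmb9, Psmb6 had a log2 shift of -1.27 in KO, so that the ratio of Psmb9 to Psmb6 signal was 2.41-fold that of WT. Relative to Psmb8, Psmb5 shifted by -0.83, a ratio 1.78-fold that of WT. Both shifts separated the groups without overlap, and each had an exact two-sided permutation p of 0.1, the smallest possible for 3 arrays against 3, or 0.15 adjusted over the 3 pairs. For Psmb7 and Psmb10 the shift was -0.46 with overlapping groups (exact permutation p = 0.6), and it became 0.12 without WT replicate 2. A ratio within an array shows unequal change of the probe sets and not their relative abundance.

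In the base, which unfolds substrates, the groups overlapped for 9 of 9 genes by their brightest probe sets. The median log2 difference was -0.02 (range -0.44 to 0.23), and it was 0.06 under 75th percentile scaling and 0.02 after cyclic loess. Psmd1, a large scaffold subunit, read 3036.7, 3542.2 and 3393.9 in WT and 3267, 1874.8 and 2365.9 in KO. KO replicates 2 and 3 lay below the WT range and KO replicate 1 within it (log2 difference -0.44, SE 0.25, limma adjusted p = 0.339). Among the ATPases, Psmc5 read 1437.5, 1944.4 and 1955.8 in WT and 1936.7, 2513.5 and 1814 in KO (log2 difference 0.23, SE 0.23, limma adjusted p = 0.575). Psmc2 read 8907.6, 6797.9 and 7591 in WT and 7710.8, 6835.1 and 5706.4 in KO (log2 difference -0.20, SE 0.22, limma adjusted p = 0.597). A dim Psmc2 probe set, Present on 3 arrays, had 0.43, with the KO arrays all above the WT arrays. Another had -0.10 with overlapping groups. Leaving out 1 array at a time moved the values of the brightest Psmd1, Psmc5 and Psmc2 probe sets by over 1.5 times. The range was -0.66 (without KO replicate 1) to -0.25 (without KO replicate 2) for Psmd1. It was 0.08 (without WT replicate 1) to 0.32 (without KO replicate 3) for Psmc5 and -0.31 (without KO replicate 1) to -0.09 (without KO replicate 3) for Psmc2.

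The other ATPases Psmc1, Psmc3, Psmc4 and Psmc6 had log2 differences of -0.10, -0.09, 0.05 and -0.02, and the scaffold subunit Psmd2 had 0.02. A second Psmc4 probe set had -0.05, and dimmer Psmc6 probe sets had 0.15 and -0.02, all with overlapping groups. Psmd4, a ubiquitin receptor, was the steadiest member: it read 3986.5, 4112.1 and 3915.9 in WT and 4004.6, 4154.9 and 3977.3 in KO, and 0.0616% of all tested genes varied less within groups. Its log2 difference of 0.01 had a 95% interval of -0.41 to 0.43. A second Psmd4 probe set ranged from 710.5 on WT replicate 1 to 2495.2 on KO replicate 2 and gave 0.67 with overlapping groups.

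In the lid 6 of 8 genes had a negative difference (median -0.13, range -0.55 to 0.53). Psmd11, a scaffold subunit, read 4374.2, 5220.7 and 4357.8 in WT and 3430.3, 3247.2 and 2847.4 in KO. The KO arrays were all below the WT arrays, with a mean of 4651 ± 494 in WT and 3175 ± 298 in KO (SD, n = 3), and a log2 difference of -0.55 (SE 0.20, limma adjusted p = 0.206). The other 3 tested Psmd11 probe sets did not separate the groups that way. The next brightest read 3427.3, 3542.4 and 3572.7 in WT and 4131.6, 2905.1 and 3971.5 in KO, a log2 difference of 0.05, and the remaining ones had -0.22 and -0.08. Leaving out 1 array at a time gave -0.61 to -0.46 for the brightest.

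Psmd8 went the other way, with 3437.6, 6105.6 and 4468.4 in WT and 5346.7, 6835 and 7759.1 in KO (log2 difference 0.53, SE 0.28, limma adjusted p = 0.307). WT replicate 2 lay above KO replicate 1, so its groups overlapped. Psmd3 read 2748, 3146.8 and 2602.7 in WT and 2384.5, 2894.4 and 1982.9 in KO (log2 difference -0.24, SE 0.22, limma adjusted p = 0.538). Without KO replicate 3 the Psmd3 difference was -0.10 and without KO replicate 2 it was -0.38. Psmd14, which strips ubiquitin from substrates, read 9696, 8868.4 and 8609.9 in WT and 8418.1, 8296 and 8055.2 in KO. The groups did not overlap, but the log2 difference was -0.13, with a 95% interval of -0.56 to 0.30. The others were Psmd6 with -0.12, Psmd12 with -0.16, Psmd13 with -0.13 and Psmd7 with 0.28.

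In the PA28 activator the 2 tested genes differed in sign, Psme1 of the interferon-induced form and Psme3 of the nuclear form. Neither was called, and the difference between them was not tested. Psme1 (PA28 alpha) read 7504.7, 8936.6 and 9341.4 in WT and 12040.9, 12633.6 and 12568.8 in KO, with no overlap. The mean went from 8594 ± 965 in WT to 12414 ± 325 in KO (SD, n = 3), a ratio of 1.45 by means of log2 signals. The log2 difference of 0.54 (SE 0.19) had a 95% interval of 0.09 to 0.99 and the smallest p of the members, yet limma's adjusted p was 0.205 and ranged from 0.137 to 0.476 over the alternatives. Leaving out 1 array at a time gave differences of 0.44 to 0.60. Psme3 (PA28 gamma) read 781, 783.5 and 840.2 in WT and 627.9, 897.4 and 623.4 in KO, where KO replicate 2 was the highest of the 6 arrays (log2 difference -0.18, SE 0.22, limma adjusted p = 0.643). The Psme3 difference was -0.36 without KO replicate 2 and -0.09 without KO replicate 3. A second Psme3 probe set had -0.46 with overlapping groups, and another was Absent on every array.

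Interferon gamma and its responders were, like Psme1, higher on the KO arrays. The signal of Ifng averaged 68.1 ± 19.8 over WT arrays and 498 ± 50.4 over KO arrays (SD, n = 3). Ifng was Present on 2 WT and 3 KO arrays, so it met the filter only with its KO arrays. It was the 1 call in that list of 4 tested genes (limma adjusted p = 0.0479, where 0.0264% of all tested genes were called higher). That call held in 2 of the 12 alternatives that tested Ifng, cyclic loess and eBayes with trend and robust, and its adjusted p ranged from 0.0321 to 0.208 over the 12. In all 4 the KO arrays were above the WT range, against 12.7% of all tested genes. Gbp2, a GTPase, had a log2 difference of 1.62 (limma adjusted p = 0.107). Their part in the Psme1 value was not tested. The mean over the 3 immunoproteasome genes lay 0.93 to 1.12 log2 units above the WT mean on the KO arrays. For the alpha subunits that range was 0.00 to 0.21 and for the beta subunits 0.04 to 0.28. For the base it was -0.20 to 0.04, for the lid -0.19 to 0.11, and for Psme1 and Psme3 together 0.07 to 0.36. KO replicate 3 had the lowest mean of the 6 arrays for base and lid, and it was also lowest for all tested genes, at -0.17.

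**Figure D3:**
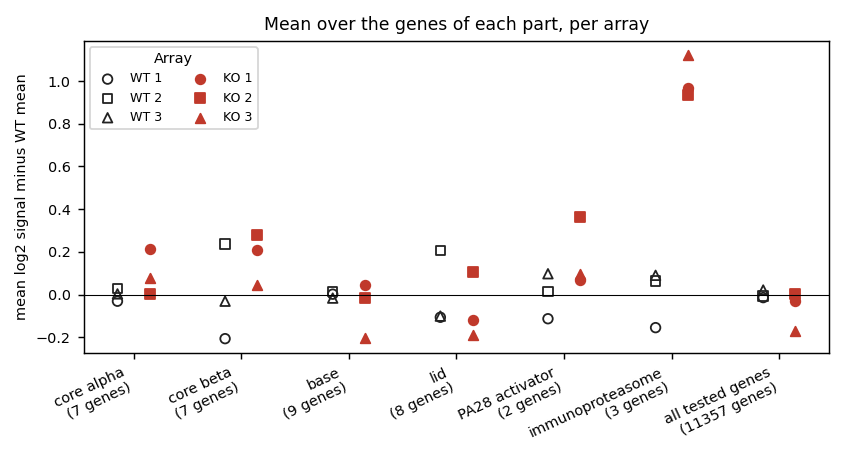
Mean log2 signal over the genes of each part on each array, relative to the WT mean. Open symbols are WT arrays and filled symbols KO arrays. The 3 KO arrays lie 0.93 or more above the WT mean for the immunoproteasome. They lie between -0.20 and 0.36 for the 5 constitutive parts and between -0.17 and 0.01 for all tested genes.

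Genes that build or regulate the proteasome were described in the same way. Of 8 tested assembly chaperones 0 were called by limma and 0 had an unadjusted p under 0.05, and 4 had positive differences. In 1 of the 8 (12.5%) the KO arrays were all above the WT arrays and in 1 (12.5%) all below, against 12.7% and 20.5% of all tested genes. Pomp, which matures the core particle, read 8307.2, 8657.3 and 8313.6 in WT and 10311.1, 9073.2 and 10646.8 in KO, without overlap, but with a log2 difference of 0.25 (SE 0.19, limma adjusted p = 0.458). Psmd5, a chaperone of the base, had -0.46 (SE 0.34, limma adjusted p = 0.452), and -0.10 without KO replicate 3. Of 7 tested proteasome-associated genes 0 were called, 1 had an unadjusted p under 0.05 and 5 had negative differences, with a median of -0.28 against -0.10 over all tested genes. In 3 of the 7 (42.9%, against 20.5% of all tested genes) the KO arrays were all below the WT arrays, and these were Ube3c, Usp14 and Psme4, an ATP-independent activator named after its values were seen. Psme4 had -0.28, and its other tested probe sets had 0.51, 0.42, 0.02 and -0.31 with overlapping groups. The gene with the unadjusted p under 0.05 was Ube3c, a ubiquitin ligase bound to the proteasome, with 555.2, 590.8 and 651.1 in WT and 354.4, 374.2 and 286.7 in KO (log2 difference -0.83, SE 0.20, limma adjusted p = 0.151). A second Ube3c probe set had 0.00. Usp14, a deubiquitinase of the regulatory particle, had -0.38 (SE 0.21, limma adjusted p = 0.327), and its other 3 tested probe sets had -0.36, -0.24 and -0.10 with overlapping groups.

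Of the ubiquitin precursors and the Nfe2l1 pathway 3 genes were tested, and limma called 0, with 0 at an unadjusted p under 0.05. Nfe2l1 itself read 1807.4, 2205.7 and 1547.3 in WT and 1343.5, 1680 and 1154.3 in KO, with overlap (log2 difference -0.41, SE 0.24, limma adjusted p = 0.345). Nfe2l2, a related stress factor, had 0.14 by its brighter probe set and 2.43 by a dimmer one, which was singled out after its values were seen (145.5, 201.4 and 133 in WT, 423.1, 963.8 and 1480.9 in KO, limma adjusted p = 0.131). Ngly1, which processes the Nfe2l1 protein, had 0.18 (SE 0.18, limma adjusted p = 0.563). Of 6 tested proliferation genes limma called 0, with 0 at an unadjusted p under 0.05, and 5 had negative differences, among them Top2a with -0.87 and Mcm2 with -0.72. Without KO replicate 3 these values were -0.34 and -0.21. The authors' deposited table of 1554 probe sets, whose smallest fold is 2.4 in size, lists 0 of the 71 member probe sets and 0 of the immunoproteasome.

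Some members had a pattern across arrays that did not follow genotype. In 9 of the 33 genes (27.3%) WT replicate 2 and KO replicate 2 were the highest arrays, against 8.56% of all tested genes. This pattern was looked for after the Psmb7 values had been seen. The 9 were Psmb7, the base subunits Psmc1, Psmc3, Psmd2 and Psmd4, and the lid subunits Psmd3, Psmd6, Psmd7 and Psmd12. In Psmd7 the signal was 404.9, 800.3 and 401.8 in WT and 544.4, 809.2 and 525 in KO. In Psmc3 it was 3516.1, 4677.7 and 3724.9 in WT and 3723.9, 4565.5 and 3017.5 in KO. Of the 9, Psmb7 and Psmd7 had the widest spans, with a highest array 6.71 and 2.01 times the lowest. The ratio of 3' to 5' signal of the β-actin controls was 1.66 and 1.51 on the replicate 2 arrays, 1.52 on KO replicate 3 and 1.99 to 4.26 on the other 3, and its part in these values was not tested. KO replicate 3 was the lowest array for 14 of 33 members (42.4%), against 41.4% of all tested genes.

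**Figure D4:**
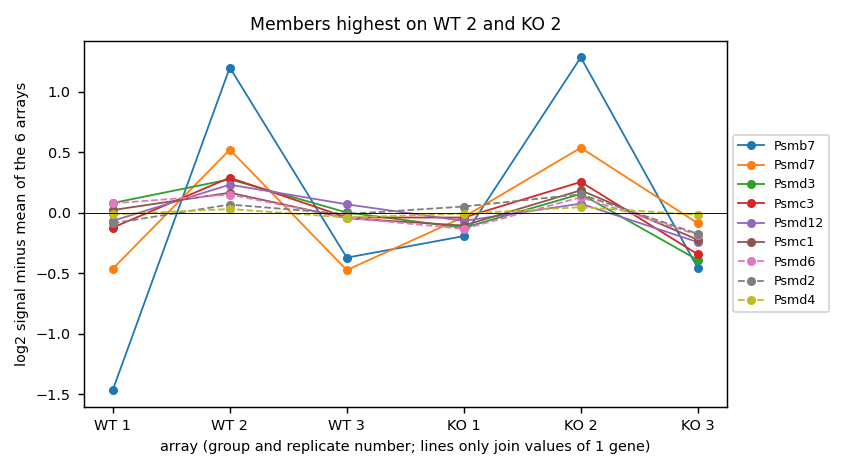
Log2 signal of the 9 members whose highest arrays were WT replicate 2 and KO replicate 2, relative to each gene's mean over the 6 arrays. Psmb7 has by far the widest span and Psmd7 the next, and the other 7 stay close to their means.

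WT replicate 1, the array with the highest β-actin ratio (4.26), was the lowest array for 9 of 33 members (27.3%), against 12.1% of all tested genes. The 9 were Psma1, Psma4, Psma7, Psmb2, Psmb4, Psmb7, Psmc5, Psmd8 and Psme1, all with a positive difference. The part of the ratio in these values was not tested. Genes chosen because a WT array is their lowest lean to a positive difference, and leaving that array out must lower it. The values that follow give the size of that fall only. Without WT replicate 1 the log2 difference was 0.44 for Psme1, 0.36 for Psma4, 0.33 for Psmd8, 0.29 for Psmb2, 0.23 for Psmb4, 0.22 for Psma7, 0.20 for Psma1 and 0.08 for Psmc5, and it turned to -0.20 for Psmb7. Without that array the KO arrays were all above the WT arrays in 6 members (18.2%, against 17.2% of all tested genes) and all below them in 3 (9.09%, against 25.5%). Without KO replicate 3 these counts were 7 (21.2%, against 15% of all tested genes) and 2 (6.06%, against 22.7%). Both settings were chosen after seeing the data.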

How the data were processed

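The 6 array files, as deposited by the authors, hold linear signal intensities and detection calls for 45101 probe sets each. Per the expression report deposited for 1 array, signals came from the Statistical algorithm with a target of 500. The authors' value table held the same intensities in 270606 of 270606 cells. The signed fold score of the authors' deposited table is used only for which probe sets it lists; how it was made is not stated there. The log2 of the deposited signals was tested in R 4.3.3 by limma's lmFit and eBayes (limma 3.58.1; KO minus WT, no covariates, two-sided, no pseudocount) on probe sets Present on at least 3 of 6 arrays, without the 64 control probe sets. Benjamini-Hochberg adjustment ran over 22063 probe sets, and limma's call needed an adjusted p under 0.05. Subunit pairs were compared with exact permutation tests. The code was tested on simulated data. Symbols come from the platform annotation, where 34958 probe sets carry 1 symbol, 932 several and 9211 none, checked by Entrez ID against GRCm38.p6.

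Members and gene lists were chosen with earlier results of these data known, so no p-value is given for a list. Values on every array are given for the 3 members of smallest p in each part, the cutting subunits and their replacements; of each further list the 2 genes of smallest p are named, and others named were chosen after their values were seen. The labels do not say whether the mice were kept or handled apart, so the p-values reflect only the variation among these samples. Alternatives were 75th percentile scaling, quantile and cyclic loess normalization, no filter, Present on all 6 arrays, a replicate block, eBayes with trend and robust, the mean over probe sets, and leaving out each array.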

Additional observations from a re-analysis of the deposited data

How the results depend on the processing

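limma called 0 of the 33 members under every setting run, and 0 to 3 of them had an unadjusted p under 0.05. The smallest adjusted p of a member ranged from 0.137 (eBayes with trend and robust) to 0.476 (no filter on Present calls). The number of members with a difference above 0 was 15 to 19. The alpha median, 0.10, moved to 0.177 under 75th percentile scaling. That scaling shifts all log2 values of an array alike, and the median over all tested probe sets went from -0.05 to 0.04. The beta median, 0.30, moved to 0.0702 with the mean of a gene's tested probe sets. That mean takes in the other probe sets of Psmb3 and Psmb4, at -0.24 and -0.12. Leaving out 1 array at a time gave 0.0277 to 0.205 for the alpha median, 0.0429 to 0.282 for the beta median, -0.07 to 0.03 for the base, -0.23 to -0.07 for the lid, 0.08 to 0.23 for PA28, -1.01 to 0.12 for the shift of Psmb7 against Psmb10, -0.136 to 0.0191 for Psmb6 and -0.20 to 1.13 for Psmb7. Psmb6, -0.03, turned to 0.0467 under 75th percentile scaling and to 0.000399 after cyclic loess. Psmb9 was called with trend and robust (limma adjusted p = 0.046, log2 difference 1.24), and its adjusted p reached 0.358 over the alternatives.

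With the replicate block, limma called 0 members, the part medians stayed at 0.10, 0.30, -0.02, -0.13 and 0.18, and 2 members had an unadjusted p under 0.05. Deviations of same-numbered arrays correlated across probe sets at 0.16, 0.03 and -0.10, so the numbers are not taken as pairs. The number of arrays limits the precision, and the printed intervals give its size.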
